A study of Mus musculus with 13 samples.

Results

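The genes described here are 10 factors and adhesion molecules of the switch between mesenchymal and epithelial cell states: the adhesion molecules Cdh1, Epcam, Cdh2 and Cdh11 and the transcription factors Snai1, Snai2, Zeb1, Zeb2, Twist1 and Twist2. They were chosen by name, not by their values, and 10 of 10 were found among the 15176 genes of the deposited table. RNA sequencing had been run on 13 mouse libraries of 6 groups that follow fibroblasts through reprogramming to pluripotency with small molecules. Mouse embryonic fibroblasts (MEF, n = 3 libraries, no treatment) were of the C57xICR strain. Oct4-GFP negative cells (GFP- cells, n = 2), which lack the green fluorescence of an Oct4 reporter, came from such fibroblasts under the mix coded VC6TF. Clusters and colonies labelled Oct4-GFP positive (1 library each) came from the same strain under VC6TF+Z. Embryonic stem cells (ESC, n = 4, no treatment) were of line R1, strain 129. The chemically induced pluripotent stem cells (CiPSC, n = 2) were lines 6 and 11 of C57xICR origin, made with VC6TFMB+Z. The GFP- cells, clusters and colonies had been picked before RNA isolation, and all ESC and CiPSC were grown on feeder layers of mitomycin C-treated MEF, so that reads of fibroblast genes in these libraries can come from feeder cells. Line R1 is a single ESC line and the strain of ESC and MEF differed, so line, strain and stage cannot be told apart. Nothing in the labels ties replicates to separate cultures or animals, so the p-values measure the spread between these libraries, which may be technical.

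Fibroblasts are mesenchymal: single, migratory cells that adhere through N-cadherin (Cdh2) and OB-cadherin (Cdh11). Pluripotent stem cells grow as compact epithelial colonies held together by E-cadherin (Cdh1) and EpCAM (Epcam). The SNAIL (Snai1, Snai2) and ZEB (Zeb1, Zeb2) zinc-finger factors bind E-box sequences and repress Cdh1 and other epithelial genes, and the basic helix-loop-helix factors Twist1 and Twist2 are active in embryonic mesenchyme. A mesenchymal-to-epithelial transition is a known early step of reprogramming with transcription factors.

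The E-box CACCTG, which reads CAGGTG on the other strand, is the core that SNAIL and ZEB factors are known to bind. The 3 promoter sequences shown are those of the members with the largest differences in log2(RPKM + 1) between clusters and colonies, with these letters in capitals where a search on both strands found them. They are the 250 bases before the RefSeq start of the gene, on the plus strand of GRCm38.p6: chr17:87635729-87635978 (Epcam), chr2:167537945-167538194 (Snai1) and chr12:33957421-33957670 (Twist1).
Epcam: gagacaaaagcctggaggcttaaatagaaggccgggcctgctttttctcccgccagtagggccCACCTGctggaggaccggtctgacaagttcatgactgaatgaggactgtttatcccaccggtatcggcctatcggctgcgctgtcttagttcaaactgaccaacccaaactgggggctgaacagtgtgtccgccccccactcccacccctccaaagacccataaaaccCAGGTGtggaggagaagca
Snai1: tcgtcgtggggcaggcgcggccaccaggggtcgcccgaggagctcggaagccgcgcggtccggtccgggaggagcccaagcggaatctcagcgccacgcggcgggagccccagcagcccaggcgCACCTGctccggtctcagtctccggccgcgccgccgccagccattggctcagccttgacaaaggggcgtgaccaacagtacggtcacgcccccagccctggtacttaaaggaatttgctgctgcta
Twist1: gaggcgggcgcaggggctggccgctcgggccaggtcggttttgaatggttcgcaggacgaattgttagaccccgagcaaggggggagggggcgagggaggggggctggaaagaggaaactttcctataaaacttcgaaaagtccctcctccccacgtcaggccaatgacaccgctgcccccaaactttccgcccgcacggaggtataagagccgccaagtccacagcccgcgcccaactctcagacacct

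The Epcam window held 2 matches, whose first bases lay 187 and 19 bases before the start. The Snai1 window held 1 match, 126 bases before the start, and the Twist1 window held 0. RefSeq windows were matched for 5 members (Epcam, Snai1, Twist1, Twist2 and Zeb2), and 2 of their 8 windows held a match. Of all 32851 windows of 250 bases (27025 genes), 17.2% held at least 1 match and 2.06% held 2 or more. A match is a stretch of letters and not a measured binding site.

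Values are RPKM, reads per kilobase, scaled to the reads of the library. In 10 libraries the kilobases are those of the whole gene span, introns included, and the depth, estimated from the values, was 8.92 to 17.75 M reads. In ESC replicate 4 and both CiPSC lines the values followed another length scale, taken as exonic, at unknown depth, so these 3 libraries are compared only with one another, and ESC otherwise means replicates 1 to 3. Within the 10, MEF replicate 3, the colonies and ESC replicate 3 wrote unmeasured genes as 0.001 and the other 7 wrote 0. The colonies correlated at r = 0.85 with MEF replicate 3 and at 0.858 with ESC replicate 3, but at 0.739 and 0.738 with ESC replicates 1 and 2 (Pearson, across genes, log2 scale). A comparison of colonies with clusters therefore crosses from one set of columns to another. The clusters were also read for Pou5f1, which encodes Oct4. It was 0.26 RPKM in the library labelled Oct4-GFP positive clusters and 0.191 and 0.429 in the GFP- cells, against 124 in the colonies and 86.1 to 152 in ESC. In Pou5f1 RNA that library so lay within the GFP- range. The label tells of reporter fluorescence, which is not among the values used here, so whether the label holds was not tested. "Clusters" below stands for the library so labelled. The fibroblast markers summed below are Col1a1, Col1a2, Col3a1, Thy1 and Postn.

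Cdh1, the cadherin of epithelial junctions, was higher at each stage than at the one before. MEF replicates 1 to 3 held 0, 0.00168 and 0.0435 RPKM (0, 2 and 28 estimated reads). GFP- cells held 0.116 and 0.353 (86 and 244 reads), the clusters 1.71, the colonies 2.15, and ESC replicates 1 to 3 held 5.56, 6.22 and 6.10. No 2 neighbouring stages overlapped in this order, though the clusters and colonies, being single libraries, could not overlap with one another. Of the 30 Cdh1 reads in MEF, 28 were in replicate 3, so no fold is given for the step from MEF to GFP- cells. The step from GFP- cells to clusters was 7.30-fold between means, and the clusters and colonies reached 0.287 and 0.361 of the ESC mean. The order of the last 2 single libraries depended on the scaling: the colonies exceeded the clusters by 0.22 in log2(RPKM + 1), and the difference was −0.18 after quantile normalization and −0.24 with equal medians.

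Epcam, the other epithelial adhesion molecule, was at no more than a few reads through the clusters and high in the colonies. It was listed at 0 in MEF replicates 1 and 2 and in GFP- replicate 1, and at 0.0206, 0.0320 and 0.0296 RPKM in MEF replicate 3, GFP- replicate 2 and the clusters, which are 3, 5 and 4 reads. The colonies held 7.98 RPKM (1215 reads) and ESC 5.18, 7.14 and 6.07, so the colonies lay above all 3 ESC libraries. From clusters to colonies the ratio was 269 (95% counting interval 105 to 993). The clusters thus had 1022 reads of Cdh1 and 4 of Epcam, a library in which 1 of the 2 epithelial adhesion genes was present at 0.287 of the ESC mean and the other was at 0.00484 of it. With so few reads, differences in Epcam among MEF, GFP- cells and clusters were not detectable at this depth.

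Cdh2 and Cdh11, the mesenchymal cadherins, were present through the clusters and low in the colonies. Cdh2 was 0.397, 0.453 and 0.286 RPKM in MEF, 0.320 and 0.235 in GFP- cells, 0.490 in the clusters, 0.00678 in the colonies (15 reads) and 0.0403, 0.0101 and 0.0249 in ESC. The clusters held the highest value of any of the 10 libraries and the colonies the lowest. Cdh11 was 3.44, 4.52 and 4.31 RPKM in MEF, 2.23 and 3.22 in GFP- cells, 3.41 in the clusters, 0.0275 in the colonies and 0.0731, 0.0467 and 0.0433 in ESC. The colonies were at 0.0138 of the cluster level for Cdh2 and at 0.00805 for Cdh11, and below every ESC library for both. The fibroblast marker sum was 108 RPKM in the clusters and 42.1 in the colonies. Thy1 (64.6 and 3.97) and Col3a1 (16.8 and 6.32) were lower in the colonies. Col1a1 (21.1 and 25.6), Col1a2 (5.22 and 5.86) and Postn (0.101 and 0.419) were not. The part of fibroblast RNA in the difference was not tested. In libraries of many cells, fewer cells of a type and less RNA per cell cannot be told apart.

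Snai1 and Snai2, relatives that repress the same targets, had different courses, Snai2 being low and Snai1 high in the colonies. Snai2 was 16.4, 12.4 and 5.57 RPKM in MEF, 14.9 and 19.2 in GFP- cells, 1.55 in the clusters, 0.309 in the colonies and 0.106, 0.0466 and 0.169 in ESC. The clusters held 0.0908 of the GFP- mean and lay below every MEF and GFP- library. Snai1 was 7.81, 8.14 and 13.1 RPKM in MEF, 0.821 and 5.28 in GFP- cells, 2.74 in the clusters, 18.4 in the colonies and 0.537, 0.0715 and 1.10 in ESC. The colonies thus had the highest Snai1 of the 10 libraries, 1.90 times the MEF mean and 32.3 times the ESC mean, in the same library in which Epcam was highest. Against ESC replicate 3, from the same set of columns as the colonies, the values were 18.4 and 1.10 RPKM. Markers of primitive endoderm, the extraembryonic layer, were high in that library too: 4 in the table summed to 81.4 RPKM in the colonies, to at most 6.35 in every other gene-span library and to 0.0476 to 0.231 in ESC, with Foxq1 at 47.6, Foxa2 at 21.6, Gata4 at 6.82 and Gata6 at 5.39 in the colonies. Their part in the Snai1 level was not tested.

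Zeb1 and Zeb2 were higher in the GFP- cells than in the fibroblasts the cells came from. Zeb2 was 1.52, 1.17 and 0.552 RPKM in MEF, 3.66 and 2.67 in GFP- cells, 1.10 in the clusters, 0.0610 in the colonies and 0.152, 0.140 and 0.0112 in ESC. Zeb1 was 0.198, 0.308 and 0.224 RPKM in MEF, 0.611 and 0.429 in GFP- cells, 0.647 in the clusters, 0.0667 in the colonies and 0.151, 0.0935 and 0.0907 in ESC. GFP- cells lay above all MEF libraries for both, and in the clusters Zeb1 was slightly above both GFP- libraries while Zeb2 was within the MEF range. Zeb1 and Zeb2 overlap annotated antisense transcripts (2 and 4), as do Cdh2 and Twist2 (1 each), and without known strand handling such reads cannot be told apart.

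Twist1 and Twist2, the helix-loop-helix factors, had their highest means in the GFP- cells. Twist1 was 33.4, 19.5 and 34.4 RPKM in MEF, 59.6 and 82.0 in GFP- cells, 64.5 in the clusters, 3.48 in the colonies and 0.210, 0.962 and 1.16 in ESC. Twist2 was 0.568, 0.709 and 1.08 RPKM in MEF, 4.24 and 3.64 in GFP- cells, 1.78 in the clusters, 0.0663 in the colonies and 0.0194, 0.0142 and 0.0407 in ESC. For both genes the clusters were above every MEF library and the colonies were above every ESC library but far below every MEF library. GFP- means were 2.43 times the MEF mean for Twist1 and 5.02 times for Twist2. The colonies held 0.0540 of the cluster level of Twist1 and 0.0372 of that of Twist2.

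The stages of each gene were also ordered by mean level. Sorting on the same values favours ranges that do not overlap, and single libraries cannot overlap with one another. No share over all genes was taken, so the order only describes the values. Most neighbours in it did not overlap. The exceptions were clusters with GFP- cells and GFP- cells with MEF for Epcam, MEF with GFP- cells for Cdh2 and Snai2, and GFP- cells with clusters for Snai1 and Twist1. For Zeb2, the clusters overlapped with MEF and the colonies with ESC. The Cdh11 order of MEF, clusters and GFP- cells rested on 3.41 RPKM in the clusters and 3.44 in the lowest MEF library.

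**Figure D1:**
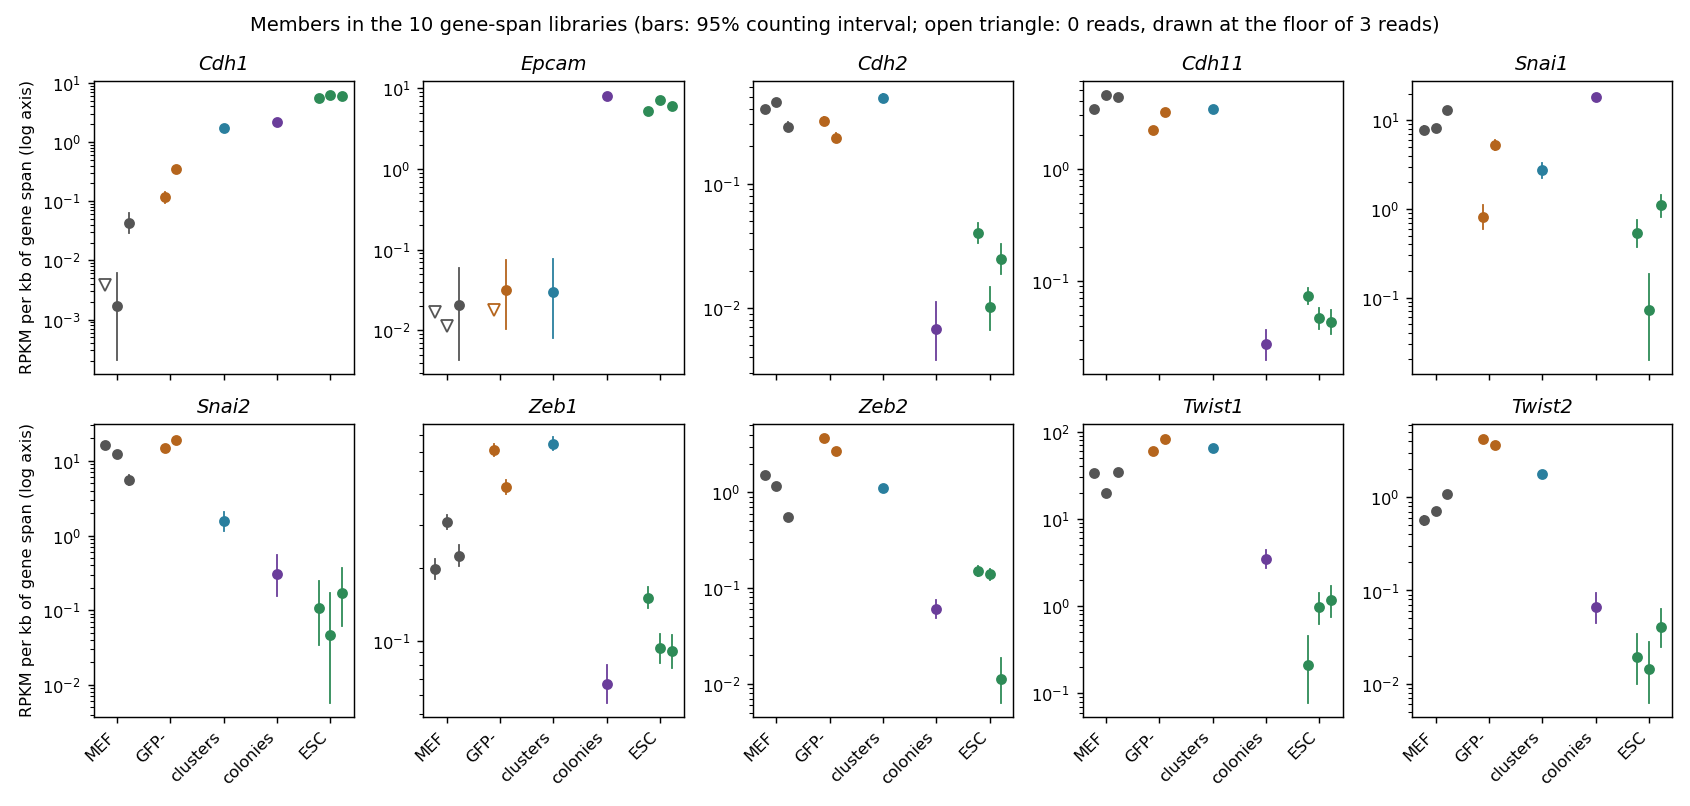
RPKM per kilobase of gene span (log axis) of the 10 genes in the 10 gene-span libraries, 1 point per library, by stage, with bars for the 95% counting interval and open triangles for 0 reads drawn at the floor of 3 reads. Cdh1 is higher at each stage, Epcam is above a few reads in the colonies and ESC alone, and Snai1 is highest in the colonies at 18.4 RPKM.

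The gene-span scale understates genes with long introns, so the order among genes was read per kilobase of exon. This takes all reads as exonic, and the span was 1.33 times the exonic length for Twist1 and 27.3 times for Cdh2. On this scale Cdh11 (70.5) and Twist1 (38.6) had the highest means in MEF, followed by Snai1 (27.6), Snai2 (20.1), Twist2 (11.5), Cdh2 (10.3), Zeb2 (7.24) and Zeb1 (4.35). In GFP- cells Twist1 (93.9) and Twist2 (57.8) led, with Cdh11 at 47.0 and Snai2 at 29.9. In the clusters Twist1 (85.5) and Cdh11 (58.8) stood beside Cdh1 at 25.1, so that mesenchymal and epithelial cadherins were both present in the library, whether in the same cells or not. In the colonies Epcam (55.1), Snai1 (52.4) and Cdh1 (31.5) led, the other 7 members being between 0.185 and 4.61. In ESC Cdh1 (87.1) and Epcam (42.3) led, and the other 8 means were between 0.187 and 2.0.

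**Figure D2:**
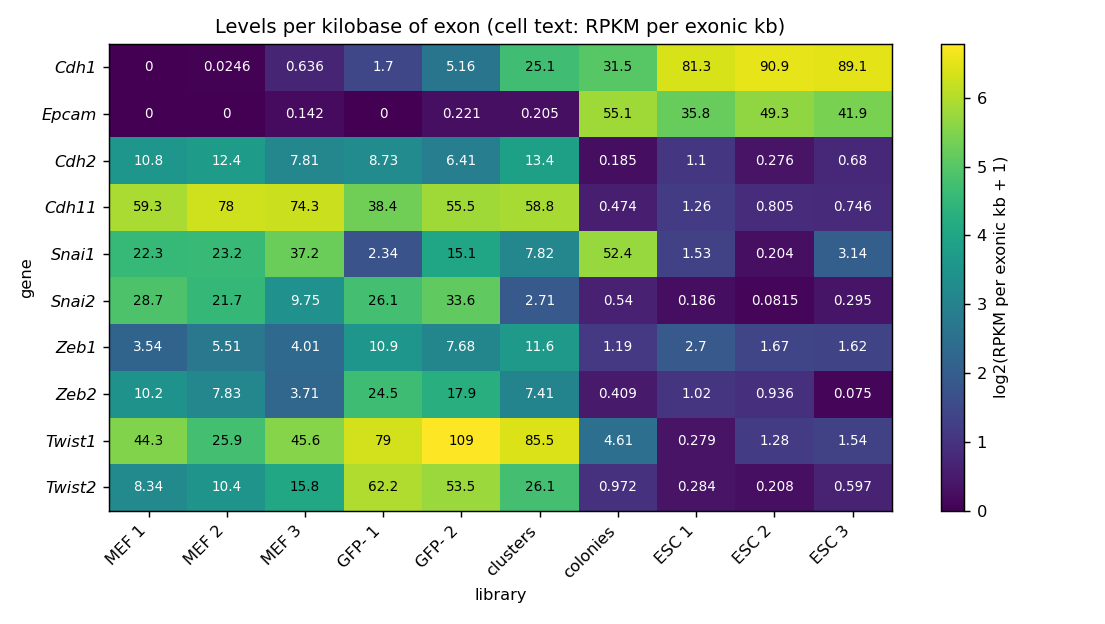
Levels of the 10 genes (rows) per kilobase of exon in the 10 gene-span libraries (columns), coloured by log2(RPKM per exonic kb + 1), with the RPKM per exonic kb in each cell. Twist1 reaches 109 in GFP- replicate 2, and in the colonies only Epcam, Snai1 and Cdh1 are above 5.

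ESC were compared with MEF to set the end points of the switch. Cdh1 and Epcam rose in ESC, and Cdh11, Snai1, Snai2 and Twist1 fell. The test was limma on log2(RPKM + 1), with a gene called at a Benjamini-Hochberg adjusted p under 0.05 and a log2 change of at least 1. Of 10647 genes tested, 9 were members. Cdh2 did not reach 1 RPKM in 2 libraries, and Zeb1 did so only through the exonic ones. The log2 changes were 2.78 ± 0.18 for Cdh1 (SE, limma adjusted p = 2.68e-05) and 2.82 ± 0.18 for Epcam (2.46e-05). On this log2(RPKM + 1) scale the largest fall was that of Twist1, at −4.08 ± 0.32 (limma adjusted p = 8.24e-05), followed by Snai2 (−3.38 ± 0.33, 0.000266), Snai1 (−2.78 ± 0.46, 0.00335) and Cdh11 (−2.26 ± 0.17, 7.22e-05). As ratios of mean RPKM the order was another. MEF over ESC was 107 for Snai2 (13 ESC reads), 75.2 for Cdh11, 37.4 for Twist1 and 17.0 for Snai1. In all, 6 of 9 members were called, where 15.9% of all tested genes were: 2 higher (7.95%) and 4 lower (7.97%). Twist2 (−0.79 ± 0.12, limma adjusted p = 0.00269) and Zeb2 (−0.89 ± 0.18, 0.00893) passed on p and missed the fold of 1, which a pseudocount of 1 makes hard to reach for genes near 1 RPKM. With exon lengths, chosen after seeing the data, both were called, at −3.17 (limma adjusted p = 0.000145) and −2.26 (0.00355), as was Cdh2 (−2.76, 0.000356). Zeb1 did not pass on either scale (−0.16 ± 0.09, limma adjusted p = 0.214, and −0.84 with exon lengths, 0.0945). For all 10 members every ESC library lay on 1 side of every MEF library: 2 were higher in ESC (26.8% of tested genes were) and 8 lower (16.7%). Fibroblast markers, summed, were 650 to 2610 RPKM in MEF and 10.6 to 24.0 in ESC. Those of macrophages and blood were 18.1 to 188 and 3.12 to 10.8. Their part in the members' fall was not tested.

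GFP- cells, treated but without the reporter's fluorescence, were compared with MEF. Twist2 and Zeb2 rose, and 0 of 9 members were called lower with limma (2 at an unadjusted p under 0.05). The log2 change was 1.48 ± 0.14 for Twist2 (SE, limma adjusted p = 0.000472) and 1.02 ± 0.20 for Zeb2 (0.0179). Of all tested genes 7.62% were called, 3.53% higher and 4.09% lower. At an unadjusted p under 0.05 there were 2745 of the 10647, in either direction. The Zeb2 call was lost when single choices changed: it was 0.82 (limma adjusted p = 0.017) without MEF replicate 3, 0.85 (0.0922) without GFP- replicate 1, and 0.82 (0.133) in the 7 libraries that write 0. Twist1 lay at 1.28 ± 0.36 (limma adjusted p = 0.0617) and was called after quantile normalization (1.64, 0.0165) and with equal medians (1.51, 0.0257). Snai1 was at −1.62 ± 0.51 (limma adjusted p = 0.0846), its 2 GFP- libraries lay far apart, and without replicate 2 it was called at −2.52 (0.00986). Leaving out a GFP- replicate leaves 1 library in that group, which is then assumed to vary like the other groups. Cdh1 was at 0.28 ± 0.20 (limma adjusted p = 0.426). On the exon scale, where a pseudocount of 1 weighs less, it was called at 1.78 (0.0218). Cdh11 (−0.46), Snai2 (0.64), Zeb1 (0.29) and Epcam (0.01) had limma adjusted p of 0.102 to 0.988. By range alone, Cdh1, Zeb1, Zeb2, Twist1 and Twist2 were above all MEF libraries (13.5% of tested genes were), Cdh11 and Snai1 were below (27.1%), and Epcam, Cdh2 and Snai2 overlapped. The GFP- libraries had lower summed markers than MEF of fibroblasts (167 and 187 RPKM against 650 to 2610) and of macrophages and blood (0.27 and 1.55 against 18.1 to 188). Summed markers were higher for keratinocytes (7.44 and 16.1 against 0.408 to 5.66), for primitive endoderm (3.03 and 6.35 against 0.261 to 1.04) and for neural cells (18.2 and 46.7 against 5.17 to 12.4). In the last 2 lists Foxa2 (2.09, limma adjusted p = 0.00139) and Nes (1.67, 0.0463) were called. These 2 genes made up most of those sums, at 2.08 and 5.25 RPKM (Foxa2) and 17.4 and 39.9 (Nes). Other genes of the lists did not rise. Gata6 (0.243 and 1.02 against 0.167 to 0.774) and Tubb3 (0.392 and 1.97 against 0.473 to 2.37) overlapped with MEF. The keratinocyte marker Krt10 was 0 in both GFP- libraries and 0.226 to 0.713 in MEF. The part of these cell types in the results was not tested.

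GFP- cells were also set against ESC, to show how far from the end point they were. Cdh1 and Epcam were lower in GFP- cells, with log2 differences of −2.50 ± 0.20 and −2.80 ± 0.20 (SE, limma adjusted p = 8.19e-05 and 4.39e-05). Cdh11, Snai2, Zeb2, Twist1 and Twist2 were higher. On the log2(RPKM + 1) scale Twist1 was so the most, at 5.36 ± 0.36 (limma adjusted p = 3.99e-05), and Snai2 next at 4.02 ± 0.37 (0.00018). Twist2 was at 2.27 ± 0.14 (limma adjusted p = 2.65e-05), Zeb2 at 1.91 (0.00035) and Cdh11 at 1.81 (0.000365). As ratios of mean RPKM, GFP- cells over ESC, Snai2 and Twist2 (159 each, over 13 and 39 ESC reads) exceeded Twist1 (91.0). Cdh11 was at 50.1 and Zeb2 at 31.4. In all, 7 of 9 members were called, with 22.7% of all tested genes: 2 lower, with 14.3%, and 5 higher, with 8.35%. Snai1 was not called (1.16 ± 0.51, limma adjusted p = 0.114), and was the 1 member whose GFP- and ESC ranges overlapped. With quantile normalization it was called at 1.46 (limma adjusted p = 0.0313), with equal medians at 1.48 (0.0294) and without GFP- replicate 1, again with a single GFP- library, at 2.05 (0.0134). Zeb1 passed on p at 0.45 (limma adjusted p = 0.00888) and missed the fold, which it passed with exon lengths (1.78, 0.00548). By range 7 members were above ESC (17.6% of tested genes were) and 2 below (37.6%). This comparison shares its GFP- and ESC libraries with the comparisons against MEF. The fibroblast marker sum was 167 and 187 RPKM in GFP- cells and 10.6 to 24.0 in ESC, with Thy1, Col3a1 and Postn called higher. Sums were also higher in GFP- cells for keratinocytes (0.128 to 0.76 in ESC), primitive endoderm (0.0476 to 0.231) and neural cells (4.69 to 14.0). Nes made up most of the neural sum (17.4 and 39.9 RPKM, against 1.74 to 2.90 in ESC). Tubb3 (0.392 and 1.97 against 2.79 to 5.96) and Pax6 (0.0122 and 0.00984 against 0.0946 to 0.257) were lower in GFP- cells. Krt10 was also lower, at 0 in GFP- cells and 0.121 to 0.582 in ESC. The part of these markers' cells in the differences was not tested. The scalings moved the median of all tested genes by 0.14 and 0.23 in GFP- cells against MEF and by 0.23 and 0.32 against ESC, quantile normalization first and equal medians second.

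**Figure D3:**
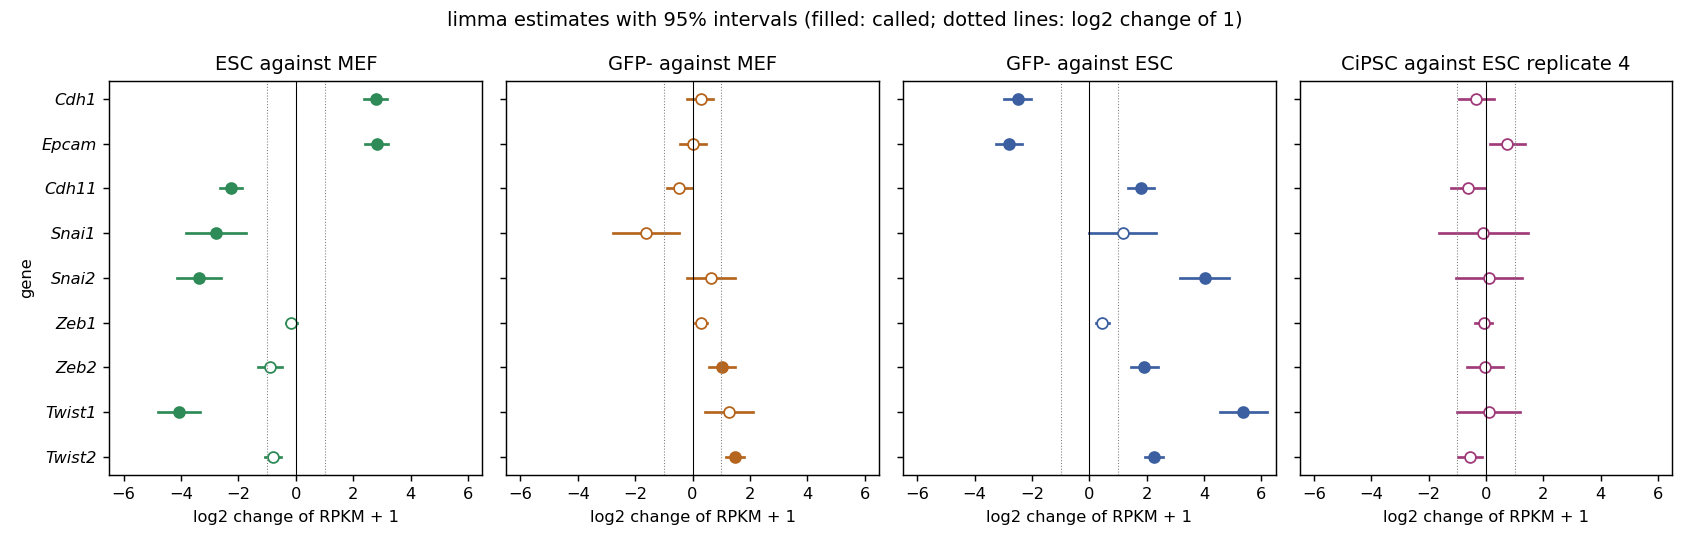
Log2 changes of RPKM + 1 estimated with limma for the 9 members tested, with 95% intervals, in 4 panels for ESC against MEF, GFP- cells against MEF, GFP- cells against ESC and CiPSC against ESC replicate 4. Filled points were called, dotted lines mark a change of 1, and Twist1 spans the widest range, from −4.08 in the first panel to 5.36 in the third.

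The clusters, the colonies and their neighbours were described without a test, since each had 1 library. A gene counted as past the fold where log2(RPKM + 1) differed by at least 1 from the mean of the other group and lay outside its range. From GFP- cells to clusters 2 members passed the fold, as did 23.7% of all tested genes. Cdh1 was higher by 1.14, with 11.2% of the genes, and Snai2 lower (−2.81), with 12.5%. Zeb2 and Twist2 were lower without reaching the fold (−0.98 and −0.83), and Twist1, Zeb1, Snai1, Cdh11, Cdh2 and Epcam differed by −0.12 to 0.26. The clusters thus combined a higher Cdh1 and a lower Snai2 with Cdh2 and Cdh11 above both GFP- libraries and Twist1 within their range. Kdr, an endothelial receptor that made up nearly all of the endothelial marker sum (24.6 RPKM, against 0.469 and 0.25 in GFP- cells), and Des, the muscle filament desmin (24.9, against 0.263 and 2.36), were high in the clusters, while 4 of 6 muscle markers (Myod1, Tnnt2, Myh6 and Actc1) were at 0. Marker sums were lower than in the GFP- libraries for fibroblasts (108 against 167 and 187), keratinocytes (0.0198 against 7.44 and 16.1) and neural cells (8.27 against 18.2 and 46.7). Of the fibroblast markers, Col1a1 (21.1 RPKM against 19.0 and 21.0) and Col1a2 (5.22 against 2.48 and 6.04) were not below both GFP- libraries. The part of these markers' cells in the differences was not tested.

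From clusters to colonies 5 members passed the fold, as did 39.9% of all tested genes. Epcam (3.12) and Snai1 (2.37) were higher, with 27.3% of all tested genes, and Twist1 (−3.87), Cdh11 (−2.10) and Twist2 (−1.38) were lower, with 12.6%. Zeb2 (−0.99) and Snai2 (−0.96) lay just short of the fold, and Zeb1 (−0.63) and Cdh2 (−0.57) were lower from levels under 1 RPKM. With equal medians Zeb1, Zeb2 and Snai2 reached −1.08, −1.44 and −1.41. With that scaling the split of all genes past the fold turned from 2906 higher and 1344 lower to 1956 higher and 2214 lower. The 5 members past the fold kept their direction under both scalings. The macrophage and blood marker sum was 1.13 RPKM in the clusters and 20.8 in the colonies, and the primitive endoderm sum 4.26 and 81.4. Their part in these differences was not tested.

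Set against ESC, the colonies were past the fold in 3 members, with 23.5% of all tested genes. Snai1 was higher by 3.68 and Twist1 by 1.38, with 14.3% of all tested genes, and Cdh1 was lower (−1.14), with 9.16%. The other 7 differed by −0.06 to 0.34. Against ESC replicate 3 alone, the only ESC library in the same set of columns, the RPKM of the colonies and of that library were 3.48 and 1.16 for Twist1 and 2.15 and 6.10 for Cdh1. Markers of pluripotent cells were unevenly present in the colonies: Pou5f1 was within the ESC range, while Nanog was 0.0418 RPKM (51.7 to 55.4 in ESC) and Sox2 was 2.80 (90 to 105). The fibroblast sum was 42.1 RPKM in the colonies and 10.6 to 24.0 in ESC, with Col3a1 (1.92), Col1a2 (1.27) and Col1a1 (1.25) past the fold. The macrophage and blood sum was 20.8 against 3.12 to 10.8, with Cd68 (2.16) and Lyz2 (1.88) past it. Cd68 made up most of that sum, at 15.8 RPKM, and Laptm5 (1.45) was within the ESC range of 0.967 to 4.82. Their part in these differences was not tested.

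The other genes of the switch were read from 7 lists. Of all tested genes, 7.95% were called higher and 7.97% lower in ESC against MEF. In GFP- cells against MEF these shares were 3.53% and 4.09%. At an unadjusted p under 0.05, in either direction, there were 3950 of the 10647 tested genes in ESC against MEF. In GFP- cells against MEF there were 2745. Mesenchymal effectors, the matrix, protease and cytoskeletal genes of such cells, fell in ESC against MEF in 19 of 22 tested and rose in 0 (median log2 change −3.12, all tested genes 0.14). Biglycan (Bgn, −5.77 ± 0.23), fibrillin (Fbn1, −2.58 ± 0.13), follistatin-like Fstl1 (−3.87 ± 0.24) and the growth factor receptor Pdgfra (−2.71 ± 0.18) had the smallest p. In GFP- cells against MEF 9 of 22 fell and 2 rose, the falls including Bgn (−3.15 ± 0.25), Fbn1 (−1.52 ± 0.15), the actin-binding Tagln (−6.25 ± 0.63) and the collagen cross-linker Lox (−3.86 ± 0.53). The 2 that rose were the proteases Mmp3 (3.76 ± 0.65) and Mmp2 (2.09 ± 0.40). The 11 had limma adjusted p of 0.000205 to 0.0266. The matrix proteins Fn1 and Tnc, picked out after their values were seen, were not called (limma adjusted p = 0.981 and 0.121): Fn1 was 55.0 and 71.3 RPKM in GFP- cells and 56.7 to 68.6 in MEF, and Tnc was 68.2 and 70.6 against 9.55 to 41.0. From clusters to colonies 16 of 22 were lower past the fold and 2 higher, where 12.6% and 27.3% of all tested genes were. The matrix proteins Tnc (−4.35) and Fn1 (−3.96) and the receptor Axl (−3.82) differed most. The 2 higher were Sparc, at 63.3 RPKM in the clusters and 697 in the colonies, and Itga5 (1.84). Against ESC 7 of 22 were higher in the colonies and 4 lower, where 14.3% and 9.16% of all tested genes were. Sparc (6.34), Pdgfra (8.45 RPKM, against 0.262, 0.230 and 0.0652 in ESC) and Acta2 (−2.17) differed most.

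Of the epithelial junction and keratin genes, 3 of 21 rose in ESC against MEF (median 0.60): the claudins Cldn6 (2.72 ± 0.31, limma adjusted p = 0.000592) and Cldn4 (4.01 ± 1.05, 0.0253) and desmoglein Dsg2 (1.09 ± 0.19, 0.00393). In GFP- cells against MEF 0 of 21 were called with limma in either direction (1 higher and 1 lower at an unadjusted p under 0.05). In the clusters 5 of 21 were past the fold above GFP- cells, where 11.2% of all tested genes were. They were the keratins Krt19 (2.23), Krt8 (2.10) and Krt18 (1.44), the claudin Cldn3 (1.46) and P-cadherin, Cdh3 (1.02). In the colonies 8 of 21 were past it above the clusters and 2 below, where 27.3% and 12.6% of all tested genes were (list median 0.29, all tested genes 0.28). Cldn6 (4.69), Krt8 (2.59) and Lsr (2.59) differed most. Krt8 and Krt18 were above ESC there by 4.21 and 3.77, with 30.8 and 34.1 RPKM in the colonies and 3.57 and 8.40 in ESC replicate 3. Among 10 epithelial regulators, Elf3 (3.19 ± 0.20), Prss8 (1.08 ± 0.24), Spint2 (1.29 ± 0.30) and Spint1 (1.80 ± 0.47) rose in ESC against MEF and 0 fell (limma adjusted p = 2.45e-05 to 0.0247). In GFP- cells against MEF 0 of 10 were called with limma. At an unadjusted p under 0.05 there were 0 of 10, and 2745 of all 10647 tested genes in either direction. In the clusters 1, Klf5 (−1.28), was past the fold, where 12.5% of all tested genes were lower. In the colonies 7 were above the clusters, where 27.3% of all tested genes were, led by Elf3 (4.84), Klf5 (3.69) and Spint2 (3.18). In ESC against MEF, 0 mesenchymal effectors and other classical cadherins were higher, and 0 epithelial regulators and corepressors lower, at an unadjusted p under 0.05 either.

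Other transcription factors of mesenchyme and the partners of the members completed the lists. Of 12 such factors, 7 fell in ESC against MEF, among them Prrx1 (−2.88 ± 0.33), Foxc2 (−2.53 ± 0.37) and the helix-loop-helix inhibitor Id2 (−2.84 ± 0.42), and Tbx3 rose (1.34 ± 0.23). In GFP- cells Tbx3 rose (1.33 ± 0.26) and Foxc2 fell (−1.98 ± 0.41) against MEF (limma adjusted p = 0.0165 to 0.0204). In the clusters 1 of 12 was higher than in GFP- cells and 4 lower, where 11.2% and 12.5% of all tested genes were. Id1 was at 3.11, Id2 at −2.59 and Foxc1 at −1.92. In the colonies Id1, an inhibitor of helix-loop-helix factors such as Twist1, was 4.27 above ESC, at 68.9 RPKM. The list of catenins and nectins also holds Vcl, vinculin, which is neither. Of its 9 genes tested, Vcl alone was called in ESC against MEF (−1.95 ± 0.38, limma adjusted p = 0.00755) and 0 in GFP- cells (limma, 1 lower at an unadjusted p under 0.05). Ctnnb1, beta-catenin, was 9.58 RPKM in the colonies and 11.7 to 28.2 in the other gene-span libraries. Of 2 other classical cadherins tested, 0 were called in either comparison with MEF (limma, 1 lower in each at an unadjusted p under 0.05). Cdh5, under the filter and picked out after its values were seen, was 5.42 RPKM in the colonies. It was 0.00211 to 0.291 in the other gene-span libraries. Of 11 corepressor genes that SNAIL and ZEB factors recruit, 4 rose and 0 fell in ESC against MEF: Hdac1 (limma adjusted p = 0.00527), Suz12 (log2 change 1.53 ± 0.28), Sin3a (1.16 ± 0.25) and Jub (1.11 ± 0.26), the last of which fell in GFP- cells (−1.99 ± 0.30, limma adjusted p = 0.00491). Against ESC, GFP- cells had 14 of 22 mesenchymal effectors higher and 1 lower. Lower there were 3 of 21 junction and keratin genes and 4 of 10 epithelial regulators. Of all tested genes 8.35% were higher and 14.3% lower, so the junction and keratin count was near the share of all genes. In CiPSC against ESC replicate 4, 0 genes of the 7 lists were called with limma. At an unadjusted p under 0.05 there were 1 higher and 5 lower mesenchymal effectors and 3 higher and 2 lower junction and keratin genes. There were also 2 higher epithelial regulators and 1 lower among the other mesenchymal transcription factors. Of all 10647 tested genes 507 were under that p, in either direction.

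**Figure D4:**
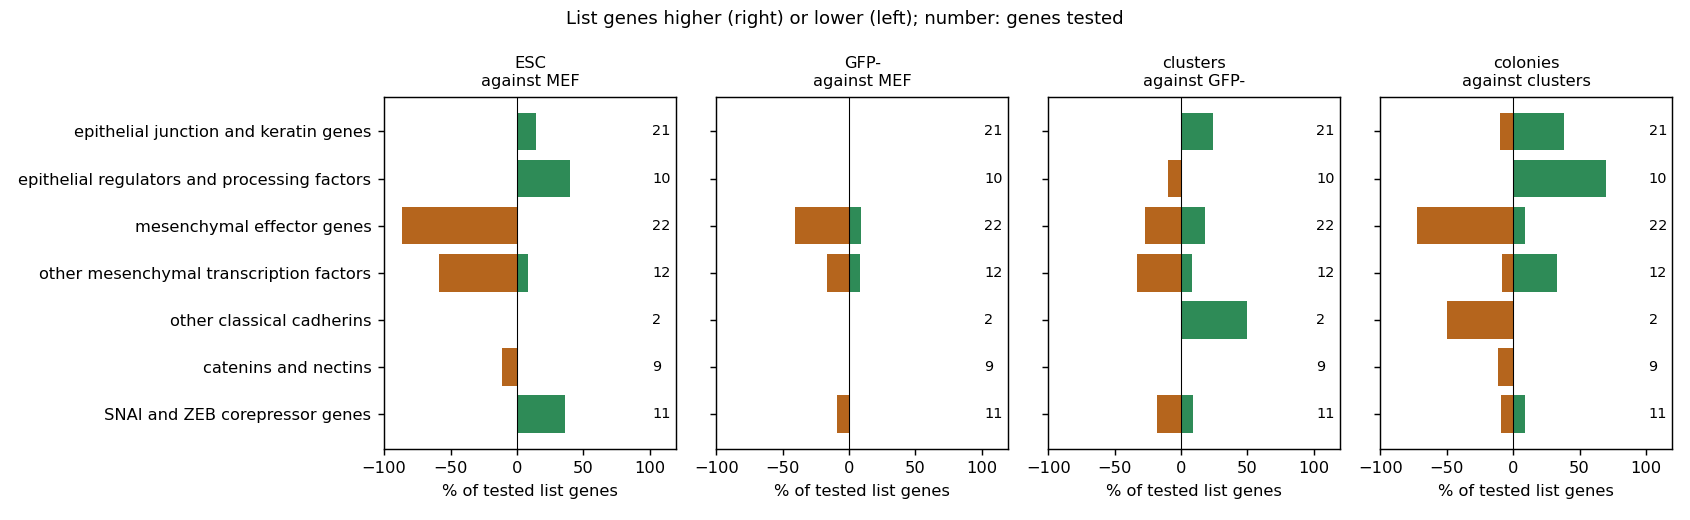
Percent of the tested genes of each of 7 lists that were higher (right, green) or lower (left, brown), in 4 panels for ESC against MEF and GFP- cells against MEF (called with limma) and clusters against GFP- cells and colonies against clusters (past the fold, single libraries); the number at the right is the genes tested. The bars of the 2 epithelial lists are empty in GFP- cells against MEF, and mesenchymal effectors are lower in 19 of 22 in ESC and in 16 of 22 in the colonies.

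The members did not vary as 1 block over the 10 libraries. On the exon scale, Epcam was inversely related to Cdh11 (Pearson r = −0.99) and Cdh2 (−0.98), Twist1 and Twist2 went together (0.96), and Cdh1 was closest to the inverse of Snai2 (−0.92). Snai1 stood apart, with r between −0.59 and 0.47 against the other 9 members. These are descriptions over 10 libraries that share stages and sets of columns. The genes most like each member in log2(RPKM + 1) over the same 10 libraries were taken from those reaching 5 RPKM in at least 1 of them. L1td1 (0.976), Dnmt3b (0.948) and Lefty1 (0.948) were most like Cdh1, and Pou5f1 (0.995), Dppa5a (0.992) and Trap1a (0.991) most like Epcam. Armcx3 (0.984), Ehd2 and Capn2 were most like Cdh11, Fam46a (0.963), Shisa5 and Clic1 most like Snai1, and Myadm (0.977), Angptl2 and Prrx1 most like Snai2. Cflar (0.978), Grem1 and Osmr were most like Zeb2, Fzd1 (0.981), Thbs2 and St3gal1 most like Twist1, and Irx3 (0.986), Ppap2b and Plin2 most like Twist2.

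In the 3 libraries of the exonic scale, the induced lines were compared with ESC replicate 4. Cdh1 was 31.0 and 28.7 RPKM in lines 6 and 11 and 37.9 in ESC, and Epcam was 15.2 and 14.5 against 8.46. The lines had both epithelial adhesion genes, slightly less of Cdh1 and more of Epcam. The mesenchymal cadherin Cdh11 was 1.28 and 0.981 RPKM in the lines and 2.27 in ESC, and Cdh2 was 0.398 and 0.340 against 0.413. Zeb1 was 1.44 and 1.51 against 1.62. Twist2 was 0.0149 and 0.00878 in the lines and 0.484 in ESC, the widest gap among the members as a ratio of RPKM. Snai1, Snai2, Zeb2 and Twist1 were between 0.0580 and 0.495 RPKM in all 3 libraries. With limma 0 of 9 members were called, where 0.16% of all tested genes were (17 genes), 0.122% higher and 0.0376% lower. At an unadjusted p under 0.05 there were 507 genes, with Epcam, Cdh11 and Twist2 among them. The log2 differences were 0.74 for Epcam (95% interval 0.14 to 1.35, limma adjusted p = 0.706), −0.62 for Cdh11 (−1.22 to −0.03, 0.982), −0.55 for Twist2 (−0.98 to −0.13, 0.652) and −0.34 for Cdh1 (−0.95 to 0.28). The ESC side is 1 library, assumed to vary like the other groups. By range 3 members were above ESC replicate 4 (48.2% of tested genes were) and 7 below (41.3%). The fibroblast marker sum was 10.9 RPKM in ESC replicate 4 and 1.34 and 0.536 in lines 6 and 11, lower in the lines as Cdh11 and Twist2 were. Snai2 (0.202 and 0.249 against 0.147) and Twist1 (0.347 and 0.318 against 0.246) were higher in the lines. The part of feeder RNA in these differences was not tested.

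**Figure D5:**
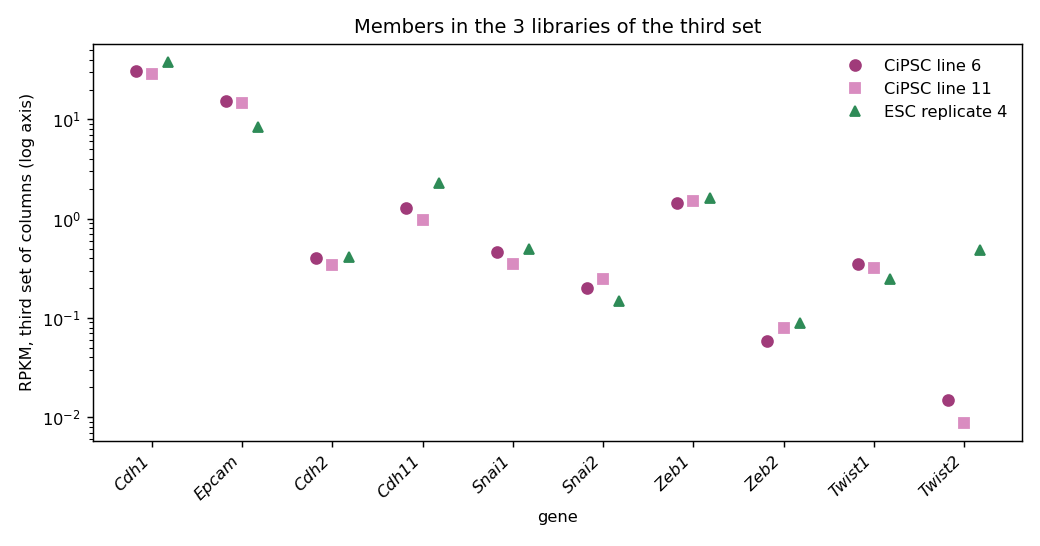
RPKM (log axis) of the 10 genes in CiPSC line 6, CiPSC line 11 and ESC replicate 4, 1 symbol per library. The 3 libraries lie close for most genes, and Twist2 is far lower in both lines (0.0149 and 0.00878) than in ESC replicate 4 (0.484).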

How the data were processed

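RNA sequencing values of 13 libraries were deposited by the authors as RPKM, per the file headers, with 1 library in each column. The submitters' processing notes list TopHat 1.3.0 and mm9. How reads were counted, over which annotation, with which lengths and with what strand handling is not given in the sources used here. From 15184 rows, 8 that shared 1 identifier were left out. Lengths came from the GRCm38 annotation (13671 genes, 90.1%). In 10 libraries RPKM times gene span gave whole reads for 79.2 to 81.0% of low values (tolerance 0.05 steps), which set depth and reads. In the other 3 it gave 2.749 to 2.789 assigned reads per read, more than a read can have, and exonic length gave 0.478 to 0.481. These were taken as exonic. Intervals and floors (3 reads) cover counting error only.

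The test was limma 3.58.1 (R 4.3.3) on log2(RPKM + 1), with 1 coefficient per group and a length-scale term, over all 13 libraries (6 residual degrees of freedom, prior 2.58), for genes that reached 1 RPKM in 2 or more libraries. Low genes change less on this scale than in RPKM. On simulated data of the ESC against MEF comparison with 200 of 10647 genes changed by a log2 of 2, 58.5% were recovered, with 7 false calls. Libraries were grouped by their labels. The genes, the lists and the tests were chosen with earlier results of these data known. Named list genes were, per list, up to 4 called genes with the smallest p, or up to 3 past the fold with the largest difference, and per member the 3 genes most like it. Genes outside this rule are named where a count is spelled out, and 1 gene that the rule names is not reported here. Alternatives were another pseudocount, filters, scalings, subsets of libraries, a replicate block, leaving out each replicate and, chosen after seeing the data, exon lengths.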

Additional observations from a re-analysis of the deposited data

How the results depend on the processing

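The counts of genes changed depended on the pseudocount and length scale. With a pseudocount of 0.1 they were 2590 (1695 as reported) in ESC against MEF, 1391 (811) in GFP- cells against MEF, 3861 (2415) in GFP- cells against ESC and 3 (17) in CiPSC against ESC. With exon lengths they were 3053, 1545, 3941 and 0. The counts past the fold became 4709 and 4516 under these 2 choices for clusters against GFP- cells (2528), 7123 and 7013 for colonies against clusters (4250), and 4712 and 4597 for colonies against ESC (2499). A minimum of 5 RPKM gave 526 genes and 0 members in GFP- cells against MEF, 4 members in GFP- cells against ESC and 2 genes in CiPSC against ESC, since fewer members were tested. In CiPSC against ESC, no filter gave 50 genes, quantile normalization 28 and the 3 exonic libraries alone 165. In GFP- cells against MEF, the 10 gene-span libraries alone gave 533 genes and 1 member and the 7 libraries that write 0 gave 503 and 1. With equal medians the genes higher and lower were 558 and 337 in GFP- cells against MEF (376 and 435 as reported) and 1326 and 927 against ESC (889 and 1526).

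Leaving out each replicate gave 540 to 1457 genes and 1 to 3 members in GFP- cells against MEF, the extremes without GFP- replicates 1 (540) and 2 (1457), each leaving 1 GFP- library assumed to vary like the other groups, and 3 to 3 genes in CiPSC against ESC. In ESC against MEF it gave 1315 to 1668 genes and 6 to 7 members. Epcam in GFP- cells against MEF was 0.01, 0.04 without GFP- replicate 1 and −0.01 without GFP- replicate 2, and was called in none of these. The cause of these changes was not tested.

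Replicates of different groups share numbers, and their deviations did not pair (correlations −0.04, −0.07 and 0.08). A replicate block over the 6 libraries numbered 1 and 2 gave 1087 genes in ESC against MEF and 329 genes and 1 member, Twist2, in GFP- cells against MEF; the same libraries without the block also gave 1 member.

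Over all alternatives for single members, 595 kept direction and call or moved by less than the spread, and 1 was counted as reversed. A further 20 values passed the threshold only under an alternative, 9 lost it and 73 untested differences moved by more than the spread. For colonies against clusters, which have no spread, a small fixed amount took its place. Untested differences short of the fold were counted by size even where the sign turned, as for Cdh1 in colonies against clusters. The 9 lost calls were all of Zeb2 in GFP- cells against MEF. Depth limits Epcam before the colonies (0 to 5 reads) and Snai2 in ESC (2 to 6 reads).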
